A study of Mus musculus with 3 samples.

Results

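The genes examined were 8 genes used to describe the activation state of macrophages, *Arg1*, *Retnla*, *Chil3*, *Mrc1*, *Cd163*, *Folr2*, *Fcna* and *Nos2*, chosen by symbol from the 31053 genes of the count files. All 8 were found. They were measured in the macrophages of ectopic tissue masses taken from mice on day 5 after a gel was implanted under the skin. A cell was taken as a macrophage when *Col1a1*, *Col1a2*, *Col3a1*, *Dcn* and *Lum* together gave less than 1% of its unique molecular identifiers (UMIs, 1 for each captured transcript) and when *Csf1r* or *C1qa* was detected. This held for 5812 of 8728 Matrigel-only, 3253 of 5478 Vehicle and 5661 of 7297 Palo cells that passed the quality limits, 14726 macrophages in all.

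The mice were CD-1 females of 6 to 8 weeks. Matrigel-only mice carried the basement membrane gel Matrigel alone and were given nothing by mouth. Vehicle and Palo mice carried Matrigel mixed with rhBMP2, a recombinant human bone morphogenetic protein used to start ectopic bone formation, and were given either corn oil with DMSO or 4 mg/kg of palovarotene, a retinoid agonist, by mouth for 5 days. Each condition was 1 droplet library. Differences between conditions therefore stand without replicates, and none of them was tested. Vehicle differed from Matrigel-only both by rhBMP2 and by the oral vehicle, which cannot be told apart. The 3 comparisons also share libraries. Levels are CPM, the UMIs of a gene per 1000000 UMIs of the cells in question, with exact Poisson 95% intervals. Shares of cells with a UMI are given after every cell was thinned to 1400 UMIs, with exact Clopper-Pearson 95% intervals. These intervals cover counting error only.

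Macrophages exposed to interleukin-4 or interleukin-13 enter a state known as alternative activation. Both cytokines signal through a receptor that contains Il4ra and through the transcription factor Stat6, and in the mouse arginase, the resistin-like protein Relm-alpha and the chitinase-like protein Ym1 are its usual readouts. Mrc1, Cd163, Folr2 and Fcna are also read as alternative markers but are borne by many resident tissue macrophages, while inducible nitric oxide synthase, which uses the same substrate as arginase, is the usual readout of classical activation by interferon-gamma and bacterial products.

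Median depth was 3090.5 UMIs for Matrigel-only, 3646 for Vehicle and 4254 for Palo macrophages. All 12 macrophage markers of a list that included *Csf1r*, *C1qa*, *Adgre1* and *Lyz2* were above 5 CPM in each. *Csf1r* and *C1qa* belong to the rule that chose the cells, so their detection was fixed in advance. In stromal cells, those at or over the 1% limit of that rule, 11, 10 and 11 of the 12 also reached 5 CPM. Summed, the 12 gave 24872, 21021 and 27744 CPM in macrophages against 953, 325 and 843 in stromal cells. Of the macrophages, 567, 303 and 137 had fewer than 1400 UMIs and were left out of the shares. Markers of other cells were present in the macrophages, summed over each list. The 11 T and NK cell markers gave 28.7 CPM in Matrigel-only against 80.9 in Vehicle and 26.8 in Palo macrophages, the 9 dendritic markers 60.7, 176 and 68.3, the 10 neutrophil markers 71.9, 127 and 39.7, and the 9 basophil and mast cell markers 1.57, 32.4 and 2.40. These 4 sums were highest in the Vehicle library. The 6 B cell markers, at 148, 76.6 and 110 CPM, and the 5 eosinophil markers, at 1.42, 2.16 and 2.33, were not. *Prss34* was at 0 in all 3 libraries, *Ngp* likewise, and *Mcpt8* was at 0 in Matrigel-only and Palo macrophages. Stromal markers gave 671, 740 and 452 CPM and 5 endothelial markers 8.74, 52.2 and 6.05, both also highest in Vehicle. The member counts with macrophages that met a T and NK, neutrophil, basophil or dendritic gate left out are given at the end. Barcodes shared by libraries numbered 19 for Vehicle with Matrigel-only, 11 for Palo with Vehicle and 21 for Palo with Matrigel-only.

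The genes lie on different chromosomes except for *Mrc1* and *Fcna*. On mm10, GENCODE places *Arg1* at chr10:24915221-24927484 on the minus strand, *Retnla* at chr16:48842551-48844461 on the plus strand, *Chil3* at chr3:106147554-106167564 on the minus strand and *Mrc1* at chr2:14229392-14332057 on the plus strand. *Cd163* is at chr6:124304656-124330527 on the plus strand, *Folr2* at chr7:101839988-101857194 on the minus strand, *Fcna* at chr2:25624666-25628030 on the minus strand and *Nos2* at chr11:78920787-78960254 on the plus strand. RefSeq promoter windows of 300 bases on GRCm38.p6 were matched for 6 of the 8 symbols, and those of 3 genes are shown. *Retnla* and *Fcna* were both lowest in Vehicle macrophages, and *Chil3* was detected mainly there. *Folr2*, also lowest there, is not shown. Capitals mark matches to 5 motifs searched on both strands, the windows run 5′ to 3′ along the gene, and positions count from the RefSeq start as 0.
Retnla promoter, chr16:48842359-48842658, plus strand: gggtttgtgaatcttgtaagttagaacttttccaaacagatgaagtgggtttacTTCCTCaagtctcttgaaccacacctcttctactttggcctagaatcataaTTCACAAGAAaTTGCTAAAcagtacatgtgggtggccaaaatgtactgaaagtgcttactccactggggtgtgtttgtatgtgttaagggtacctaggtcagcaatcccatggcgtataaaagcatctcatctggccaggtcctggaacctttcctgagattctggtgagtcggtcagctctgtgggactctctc
Fcna promoter, chr2:25627925-25628224, minus strand: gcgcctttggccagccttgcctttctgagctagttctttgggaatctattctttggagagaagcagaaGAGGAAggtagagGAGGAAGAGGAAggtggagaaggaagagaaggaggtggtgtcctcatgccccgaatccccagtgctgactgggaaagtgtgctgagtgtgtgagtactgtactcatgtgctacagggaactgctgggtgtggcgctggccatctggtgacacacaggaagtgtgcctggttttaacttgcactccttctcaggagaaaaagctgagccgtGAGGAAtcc
Chil3 promoter, chr3:106167515-106167814, minus strand: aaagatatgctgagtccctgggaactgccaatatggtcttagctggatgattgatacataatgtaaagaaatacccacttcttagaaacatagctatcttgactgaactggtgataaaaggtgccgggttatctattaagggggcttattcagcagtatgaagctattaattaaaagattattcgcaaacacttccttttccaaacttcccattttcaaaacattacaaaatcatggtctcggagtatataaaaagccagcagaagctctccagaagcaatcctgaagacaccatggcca
The *Retnla* window held the Stat6 motif, TTC and GAA with any 4 bases between, present in 6.95% of 32851 RefSeq windows of this length, as TTCACAAGAA from position -145, and the C/EBP motif TTGCNNAA, present in 10.8%, as TTGCTAAA from position -134. The PU.1 motif GAGGAA, present in 28.3% of windows, was matched 1 time in *Retnla*, 4 times in *Fcna* and 3 times in *Mrc1*. The windows of *Folr2* held no match to the Stat6, C/EBP or PU.1 motif, nor did that of *Cd163*. The *Chil3* window held none of the 5 motifs. The HIF motif ACGTG, present in 19.6% of windows, was matched 1 time in *Cd163*, and the AP-1 motif TGANTCA, present in 7.81%, 1 time in 1 of the windows of *Folr2*. No motif overlapped another. A match of letters is a description of the window and not a binding site.

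*Arg1*, which encodes the arginase that turns arginine into ornithine, and *Retnla*, which encodes Relm-alpha, stood apart in the Vehicle library in opposite directions. *Arg1* was at 59.8 CPM (95% interval 56.5 to 63.3) in Matrigel-only against 1189 (1171 to 1206) in Vehicle and 33.2 (31.0 to 35.4) in Palo macrophages. *Retnla* was at 6785 CPM (6750 to 6821), 796 (781 to 810) and 4292 (4267 to 4316). *Arg1* was thus high in the Vehicle library alone and *Retnla* low in the Vehicle library alone. These intervals treat UMIs as independent and cover neither the spread among cells nor that among libraries, so their separation is no test. The 1% of Vehicle macrophages with the most held 16.4% of the *Arg1* UMIs and 49.4% of the *Retnla* UMIs. As log2 ratios, *Arg1* was 4.31 (4.23 to 4.40) in Vehicle over Matrigel-only and -5.16 (-5.26 to -5.07) in Palo over Vehicle, and *Retnla* was -3.09 (-3.12 to -3.06) and 2.43 (2.40 to 2.46). The folds were 19.9-fold higher and 35.8-fold lower for *Arg1*, and 8.53-fold lower and 5.39-fold higher for *Retnla*. Palo over Matrigel-only gave smaller ratios, -0.85 (-0.98 to -0.73) for *Arg1* and -0.66 (-0.67 to -0.65) for *Retnla*.

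The shares of cells followed the levels. An *Arg1* UMI was found in 4.51% (3.96 to 5.10) of Matrigel-only, 39.1% (37.4 to 40.9) of Vehicle and 3.43% (2.97 to 3.95) of Palo macrophages after thinning, and in 7.81%, 46.0% and 6.92% before it. A *Retnla* UMI was found in 40.9% (39.5 to 42.2), 9.85% (8.80 to 11.0) and 36.9% (35.6 to 38.2). The difference of shares in Vehicle over Matrigel-only was 34.6 percentage points (32.8 to 36.5) for *Arg1* and -31.0 points (-32.7 to -29.3) for *Retnla*. Free RNA gives UMIs in cells that do not express a gene, so the same shares were taken in stromal cells, which had median depths of 9082, 17114 and 12955 UMIs. Those shares were 0.337%, 1.12% and 0.0682% for *Arg1* and 7.13%, 1.05% and 4.77% for *Retnla*, each below the macrophages of the same library. Thinning removes more UMIs from the deeper stromal cells, so these shares, and those of the other genes below, can understate free RNA. Before thinning, the stromal shares were 1.20%, 6.55% and 0.591% for *Arg1*. For *Retnla* they were 23.4%, 5.61% and 23.7%, against 49.2%, 12.6% and 46.1% of macrophages. The part of free RNA in the macrophage shares was not tested. Among T and NK cells, which were few, *Arg1* gave 0% (0 to 15.4) of 22 Matrigel-only, 2.52% (0.621 to 6.66) of 141 Vehicle and 9.21% (1.77 to 25.5) of 30 Palo cells. Their median depths were 1465, 2220 and 1961 UMIs. The Matrigel-only and Palo intervals included the macrophage share of the same library.

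*Chil3*, which encodes Ym1, was detected mainly in the Vehicle library, where it was at 95.7 CPM (90.7 to 101) from 1374 UMIs. It gave 12 UMIs or 0.589 CPM (0.304 to 1.03) in Matrigel-only and 44 UMIs or 1.60 CPM (1.16 to 2.15) in Palo macrophages. The log2 ratio was 7.34 (6.53 to 8.30) in Vehicle over Matrigel-only and -5.90 (-6.37 to -5.47) in Palo over Vehicle. *Chil3* passed the low-level filter, at least 5 CPM in 1 of the compared libraries, only through the Vehicle library. Its UMIs came from few cells, 171 of 3253 Vehicle macrophages, or 4.16% (3.47 to 4.94) after thinning, and the 1% of macrophages with the most held 65.7% of them. Neutrophils are also known to express *Chil3*. Vehicle held 53 neutrophil-type cells, of which 1 carried all 21 *Chil3* UMIs of that class, at 552 CPM (342 to 844). Their median depth was only 647 UMIs, so few *Chil3* UMIs could be seen per cell. The 7 Vehicle macrophages that met the neutrophil gate carried 0. The part of neutrophils in the macrophage level was not tested. In stromal cells *Chil3* gave a share of 0.0111% in Matrigel-only against 0.238% in Vehicle and 0.026% in Palo after thinning.

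**Figure D1:**
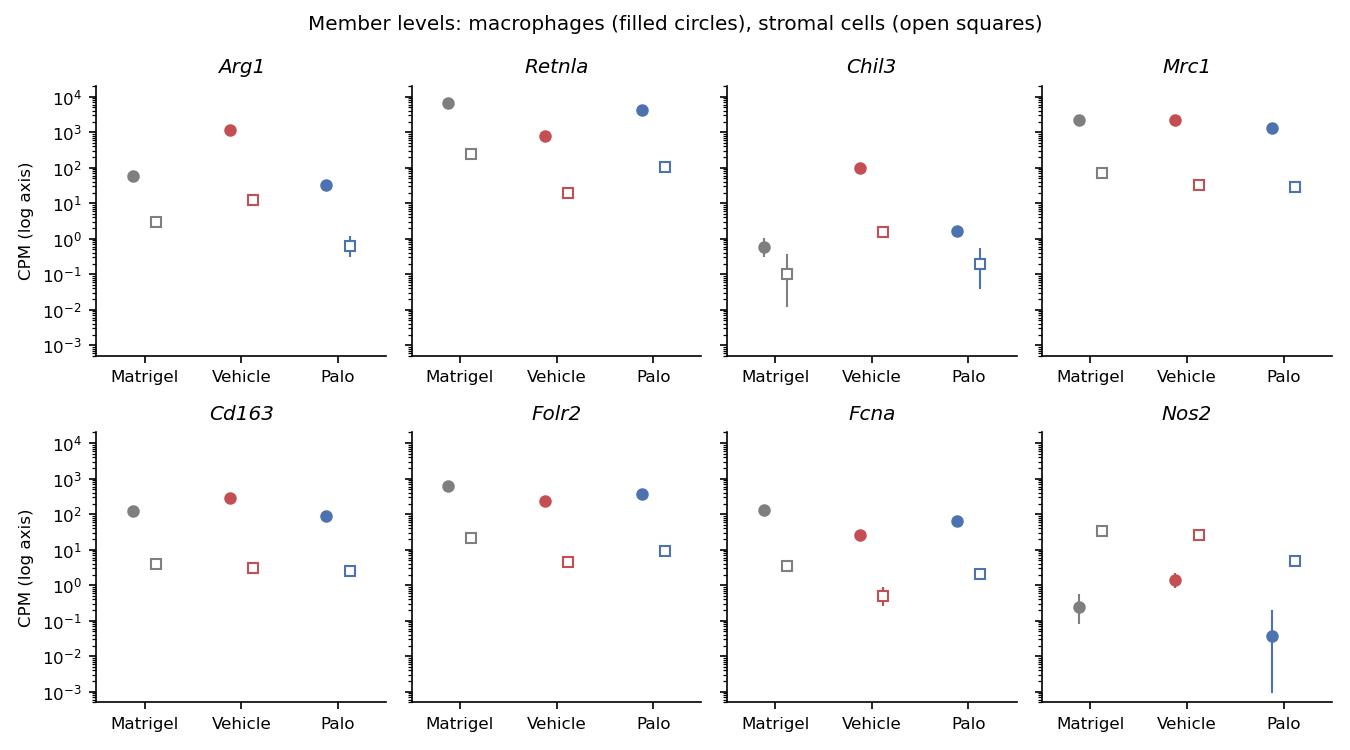
Levels of the 8 genes in macrophages (filled circles) and stromal cells (open squares) of the 3 libraries, in CPM on a log axis, with exact Poisson 95% intervals. *Arg1* was at 1189 CPM in Vehicle macrophages against 59.8 and 33.2 in the others, *Retnla* was lowest in Vehicle macrophages, at 796, and *Nos2* alone was higher in stromal cells than in macrophages of every library.

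*Mrc1*, which encodes the mannose receptor, was the most widely detected of the 8. It was at 2169 CPM (2149 to 2190) in Matrigel-only against 2261 (2237 to 2286) in Vehicle and 1335 (1321 to 1349) in Palo macrophages. The log2 ratio of Vehicle over Matrigel-only was 0.06 (0.04 to 0.08) and ran from -0.01 to 0.08 over the alternative settings, so that no direction is given for it, while Palo over Vehicle was -0.76 (-0.78 to -0.74). The share of cells with a UMI went differently, 84.1% (83.1 to 85.1), 69.4% (67.7 to 71.0) and 71.4% (70.2 to 72.6). Vehicle macrophages were thus spread more widely, with 30.6% at 0 UMIs and 7.10% at 10 or more after thinning, against 15.9% and 2.28% in Matrigel-only and 28.6% and 0.499% in Palo macrophages. Stromal cells held *Mrc1* in 5.94%, 3.55% and 3.10% of cells.

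*Cd163*, which encodes the hemoglobin-haptoglobin scavenger receptor, was at 122 CPM (118 to 127), 281 (273 to 290) and 88.3 (84.8 to 91.9). Its level was highest in the Vehicle library, with a log2 ratio of 1.20 (1.13 to 1.27) over Matrigel-only and of -1.67 (-1.75 to -1.60) in Palo over Vehicle. The share of cells with a UMI differed by 0.884 points (-0.577 to 2.38) between Vehicle and Matrigel-only, an interval that includes 0. The level therefore came from more UMIs per cell. The 1% of macrophages with the most *Cd163* held 32.0% of its UMIs in the Vehicle library against 20.8% in Matrigel-only, and the median among cells with any was 3 against 2 UMIs.

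*Folr2*, which encodes a folate receptor of resident macrophages, and *Fcna*, which encodes ficolin A, a lectin that starts the complement cascade, were both lowest in the Vehicle library. *Folr2* was at 609 CPM (598 to 619) in Matrigel-only against 240 (232 to 248) in Vehicle and 366 (359 to 374) in Palo macrophages, in 45.2%, 22.0% and 32.2% of cells. *Fcna* was at 134 CPM (129 to 139), 26.2 (23.6 to 29.0) and 64.3 (61.3 to 67.4), in 11.7%, 3.41% and 6.31% of cells. Both thus stood in the order Matrigel-only, Palo, Vehicle, as *Retnla* did. The log2 ratios in Vehicle over Matrigel-only were -1.34 (-1.40 to -1.29) and -2.35 (-2.51 to -2.20), and in Palo over Vehicle 0.61 (0.55 to 0.67) and 1.30 (1.13 to 1.46). Stromal cells held *Folr2* in 2.26%, 0.556% and 1.12% and *Fcna* in 0.401%, 0.0726% and 0.226% of cells.

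*Nos2*, which encodes inducible nitric oxide synthase, was near its floor in macrophages, with 5 UMIs in Matrigel-only against 20 in Vehicle and 1 in Palo cells. Of all its UMIs in passing cells, 99.3% of 678, 95.5% of 628 and 98.7% of 75 came from stromal cells. The level there was 33.6 CPM (31.1 to 36.2) in Matrigel-only against 25.4 (23.4 to 27.6) in Vehicle and 4.67 (3.67 to 5.87) in Palo cells. The Palo library was thus the low one, with stromal log2 ratios of -2.44 (-2.81 to -2.09) over Vehicle and -2.84 (-3.21 to -2.50) over Matrigel-only. *Nos2* did not reach 5 CPM in macrophages of any library and was not among the genes tested there.

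Ratios of the members were set beside those of all genes. A gene was counted as higher or lower when its log2 ratio, with 5 CPM added to both levels, passed 2-fold. In Vehicle over Matrigel-only, 3 of the 7 members tested were higher (*Arg1*, *Chil3* and *Cd163*) and 3 lower (*Retnla*, *Folr2* and *Fcna*), where 2.77% of 9920 genes were higher and 1.23% lower. With the mean of each cell's CPM in place of summed UMIs, *Cd163* was at a log2 ratio of 0.95 and no longer passed, and in Palo over Vehicle *Fcna* no longer passed. With 5 CPM added, *Arg1* had the highest ratio of all 9920 genes and *Retnla* the lowest, at -3.08. In Palo over Vehicle, 2 of 7 were higher (*Retnla* and *Fcna*) and 3 lower (*Arg1*, *Chil3* and *Cd163*), where 0.906% of 9819 genes were higher and 3.3% lower, and *Arg1* had the lowest ratio of all, at -4.97. In Palo over Matrigel-only, 0 of 6 were higher and 1, *Fcna*, was lower, where 0.443% of 9703 genes were higher and 0.721% lower. *Fcna* passed there by a narrow margin, from 134 to 64.3 CPM, and fell short under 4 other settings. *Chil3* passed the filter in 2 of the comparisons, each time only through Vehicle, where it had to be higher, and *Nos2* in none. The members were also chosen with earlier results of these data known. The member counts and ranks are therefore a description and not support. The median of all genes was 0.00 in the first comparison, -0.14 in Palo over Vehicle and -0.14 in Palo over Matrigel-only, so ratios with Palo stand against that shift. With TMM factors in place of total UMIs, the higher share of all calls went from 21.5% to 36.4% in Palo over Vehicle and from 38.1% to 58.2% in Palo over Matrigel-only.

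**Figure D2:**
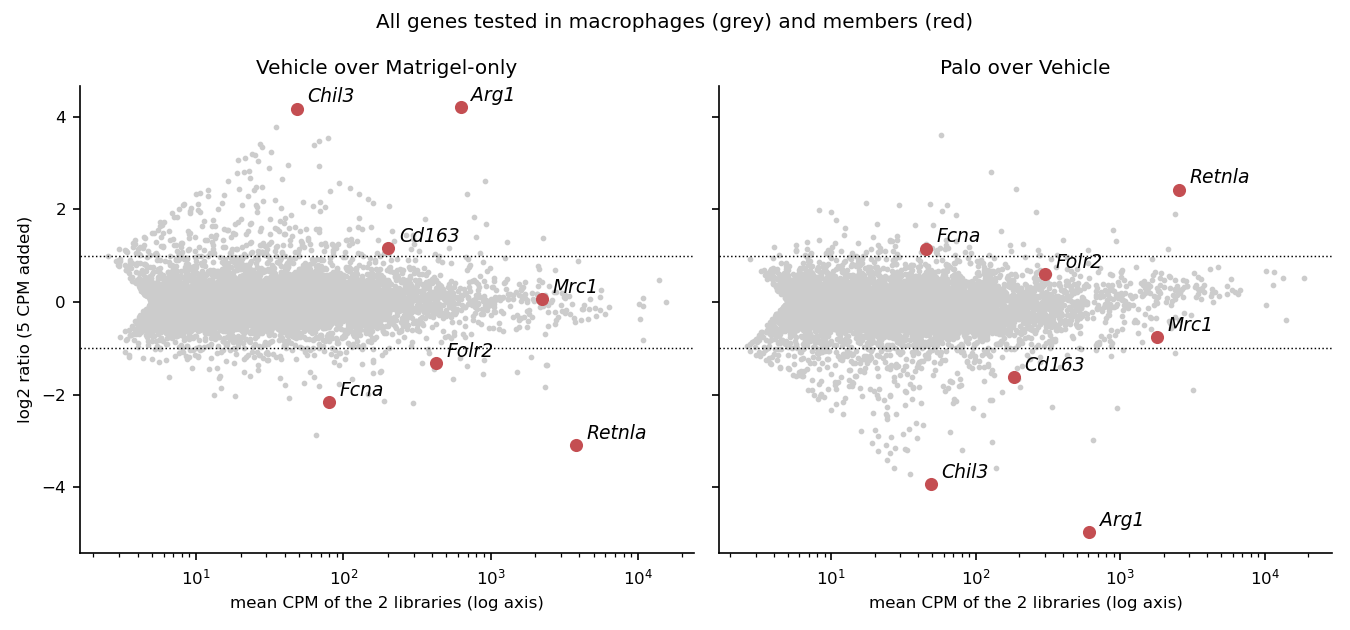
Log2 ratio with 5 CPM added against the mean CPM of the compared libraries (log axis) for all genes tested in macrophages (grey) and the members tested (red), for Vehicle over Matrigel-only and Palo over Vehicle, with dotted lines at 2-fold. *Arg1* stood highest on the left and lowest on the right, at -4.97, and *Retnla* lowest on the left, at -3.08.

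UMIs of *Retnla* were concentrated in part of the macrophages. After thinning, 22.1% of Matrigel-only and 17.2% of Palo macrophages had 10 or more *Retnla* UMIs against 3.06% of Vehicle macrophages, and the highest cells had 777, 721 and 543 UMIs. The 10% of macrophages with the most held 69.1%, 71.8% and 99.3% of the *Retnla* UMIs in Matrigel-only, Palo and Vehicle. Only 410 of the 3253 Vehicle macrophages, or 12.6%, had any *Retnla* UMI, so the Vehicle value was largely set by that number. For *Arg1*, 4.62% of Vehicle macrophages had 10 or more UMIs after thinning against 0.0322% of Matrigel-only macrophages, and the median among Vehicle macrophages with any was 5 UMIs. Vehicle macrophages thus held more cells at both low and high numbers of *Arg1* UMIs.

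**Figure D3:**
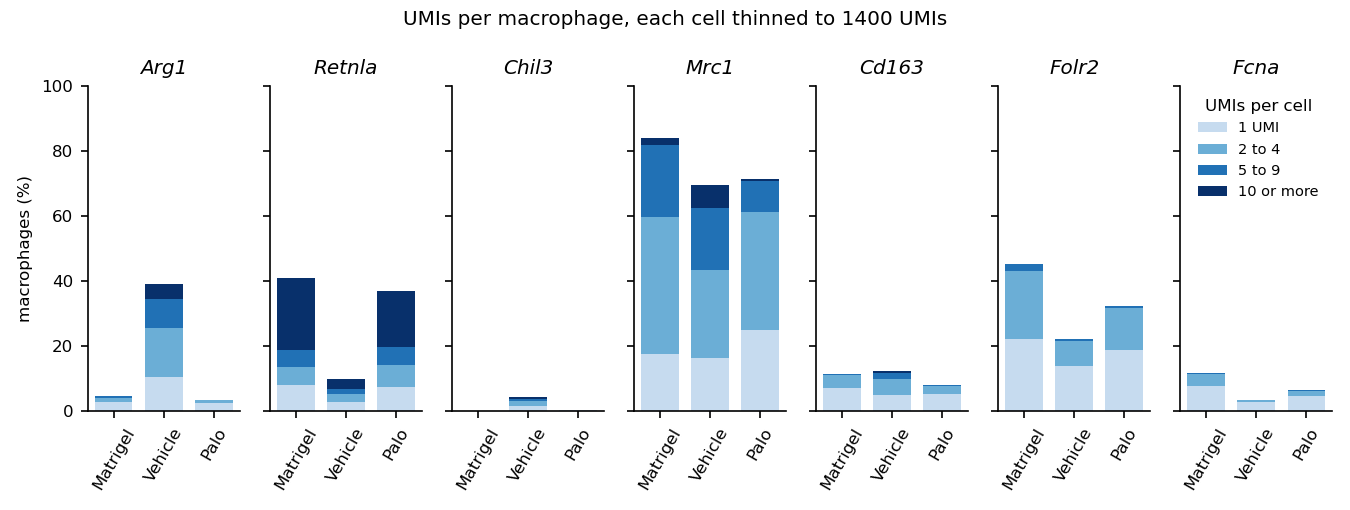
Share of macrophages with 1, 2 to 4, 5 to 9 and 10 or more UMIs of 7 genes in each library, after thinning every cell to 1400 UMIs. *Retnla* had 10 or more UMIs in 22.1% of Matrigel-only, 3.06% of Vehicle and 17.2% of Palo macrophages, and *Mrc1* spread widest in the Vehicle library.

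To see whether the differences held within kinds of macrophages, cells were placed by which of 3 lists of 4 genes they expressed most, with ties unassigned. These are ranges along the data and not cell types. The tissue range (*Ms4a7*, *Stab1*, *Ccl12*, *Ccl8*) held 58.6%, 61.6% and 54.6% of Matrigel-only, Vehicle and Palo macrophages, the recruited range (*Hal*, *Ltc4s*, *Ly6c2*, *Plac8*) 9.60%, 9.22% and 6.75% and the Mmp12 range (*Mmp12*, *Itgax*, *Ear2*, *Dcstamp*) 16.2%, 11.3% and 22.7%. *Arg1* was highest in Vehicle in each. It was at 39.6, 1400 and 42.3 CPM in the tissue range, 256, 1365 and 85.8 in the recruited range and 8.61, 393 and 8.92 in the Mmp12 range. *Retnla* was lowest in Vehicle in each, at 1948, 422 and 1443 CPM in the tissue range, 24717, 1420 and 14087 in the recruited range and 8906, 1278 and 6094 in the Mmp12 range. With the Vehicle cells weighted to the ranges of the Matrigel-only library, the log2 ratio of Vehicle over Matrigel-only was 4.29 for *Arg1* and -3.07 for *Retnla*. Genes that set the ranges themselves differed between Matrigel-only and Vehicle macrophages, *Ccl8* at 2758 against 5073 CPM, *Stab1* at 863 against 372 and *Ear2* at 264 against 89.3. A range may therefore not hold like cells in each library. Genes that set the ranges also tracked members across macrophages. In Matrigel-only, Vehicle and Palo, Pearson's r was 0.44, 0.22 and 0.30 for *Hal* with *Fcna*, and 0.24, 0.46 and 0.19 for *Ccl8* with *Cd163*. For *Ear2* with *Retnla* it was 0.37, 0.26 and 0.34. How a member differs between ranges can thus be set in part by the sorting.

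The other members differed by range. The excess of *Cd163* in Vehicle over Matrigel-only was found in the tissue range, at 430 against 164 CPM and a log2 ratio of 1.39 (1.31 to 1.47), while the recruited range gave -0.09 (-0.47 to 0.27) and the Mmp12 range 0.06 (-0.42 to 0.53). *Folr2* was lower in Vehicle than in Matrigel-only in all 3 ranges, by log2 ratios of -1.15, -3.06 and -0.93. *Fcna* was at 27.0 CPM in the recruited range of Vehicle against 311 in Matrigel-only and 296 in Palo, and was between 3.95 and 6.18 CPM in the Mmp12 range of every library. *Mrc1* in Vehicle over Matrigel-only was 0.06 (0.04 to 0.09) in the tissue range, -0.57 (-0.68 to -0.46) in the recruited range and 0.42 (0.36 to 0.49) in the Mmp12 range. *Chil3* in Vehicle was at 133 CPM in the tissue range, 176 in the recruited range and 3.24 in the Mmp12 range.

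**Figure D4:**
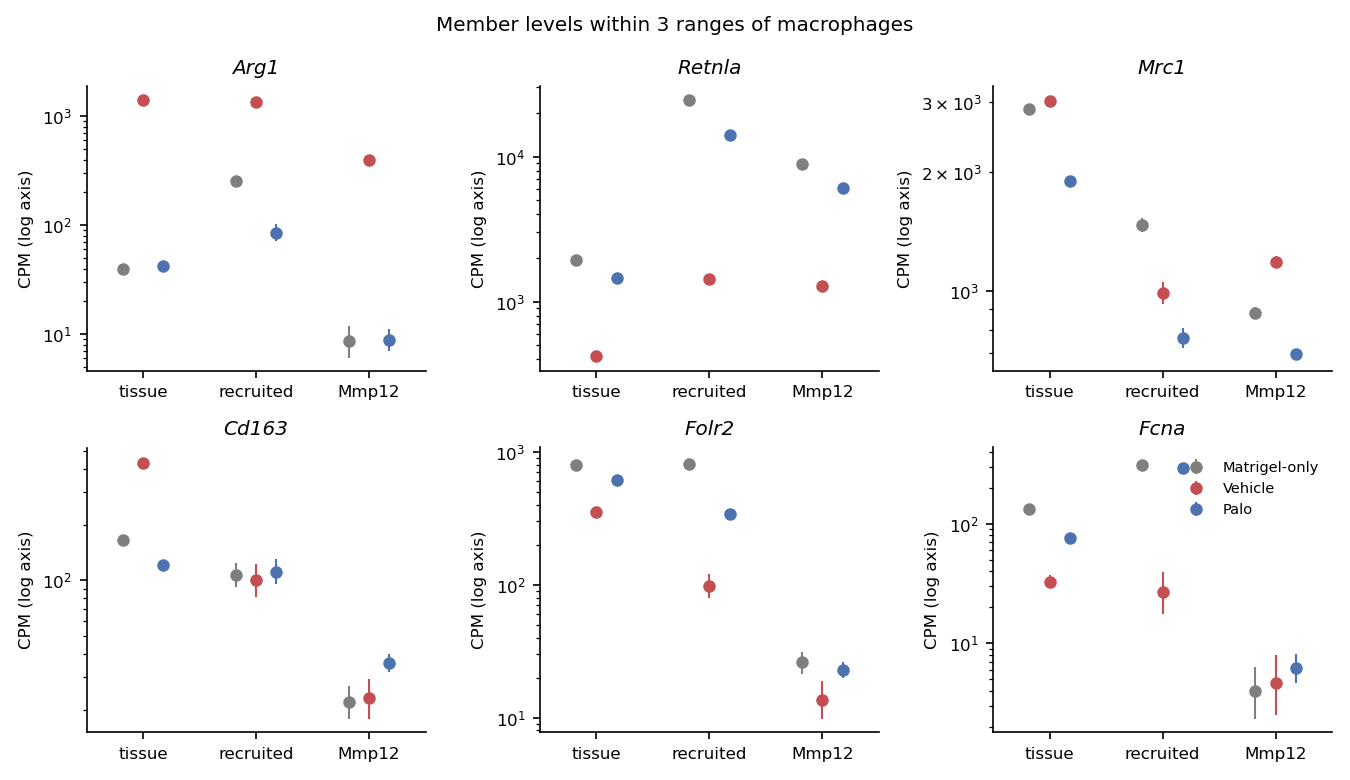
Levels of 6 genes in CPM (log axis) within 3 ranges of macrophages in the 3 libraries, with exact Poisson 95% intervals. *Arg1* was highest and *Retnla* lowest in Vehicle in every range, and the *Cd163* excess in Vehicle stood in the tissue range, at 430 against 164 CPM in Matrigel-only.

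Detection of members in the same cell was compared with the product of their shares at 1400 UMIs per cell. The 28 pairs were examined in each library. *Arg1* and *Retnla* were both found in 2.35% (1.96 to 2.80) of Matrigel-only, 3.05% (2.46 to 3.74) of Vehicle and 1.34% (1.05 to 1.68) of Palo macrophages, which was 1.28, 0.792 and 1.06 times the product. Among *Retnla*-positive macrophages, *Arg1* was found in 5.76%, 31.0% and 3.62%, against 4.51%, 39.1% and 3.43% of all macrophages. *Folr2* and *Fcna* were found together 1.72, 2.41 and 1.79 times, *Cd163* and *Folr2* 1.46, 1.76 and 1.55 times, and *Cd163* and *Fcna* 1.95, 1.73 and 2.37 times as often as the product. These 3 genes thus shared cells more often than the product of shares in all 3 libraries. *Mrc1* was found in 94.2%, 86.9% and 85.8% of *Folr2*-positive macrophages.

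Pairs with *Retnla* or *Chil3* lay above the product in Vehicle in several cases. *Retnla* and *Cd163* were found together 0.971, 2.28 and 0.994 times the product in Matrigel-only, Vehicle and Palo macrophages, and *Retnla* and *Folr2* 0.906, 1.38 and 0.766 times. In Vehicle, *Cd163* was found in 40.4% of *Chil3*-positive macrophages, 3.32 times the product, *Arg1* in 58.2%, 1.49 times, and *Folr2* in 8.88%, 0.404 times. *Arg1* and *Folr2* were found together 0.774 times the product in Vehicle and 1.52 times in Palo macrophages. The ratios of this paragraph and the last are descriptions within libraries, where cells share a library and its free RNA.

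**Figure D5:**
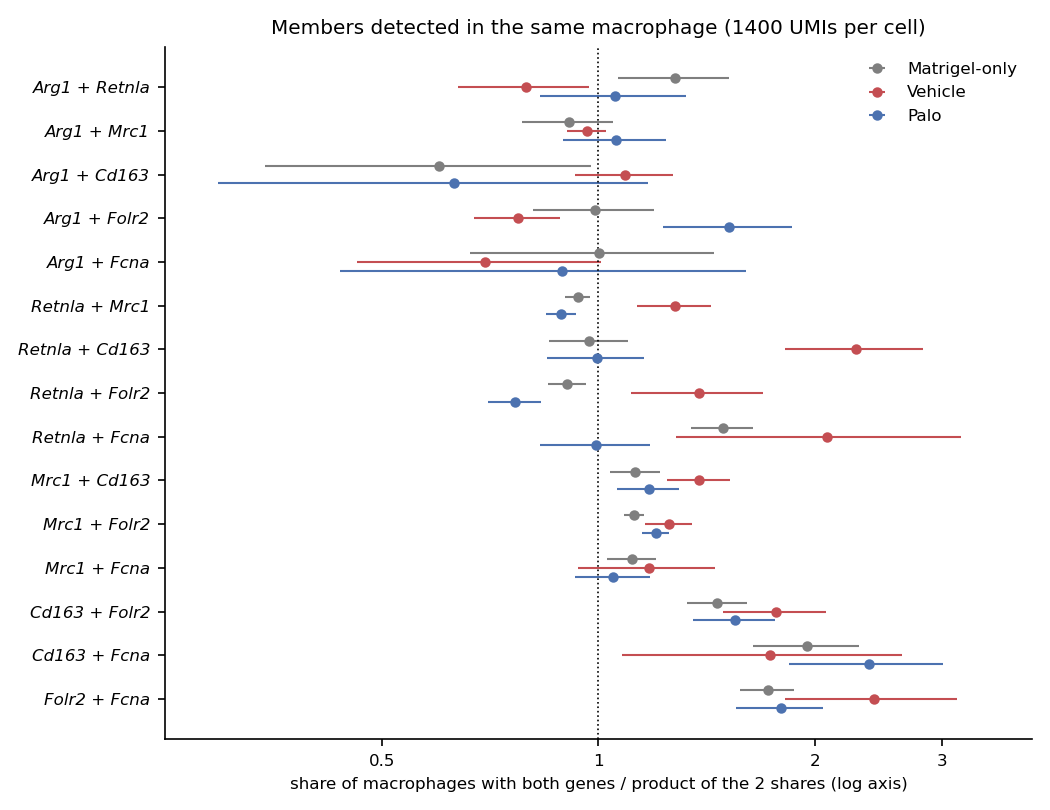
Share of macrophages with both genes over the product of their shares (log axis, dotted line at 1) for 15 pairs of 6 genes in the 3 libraries, at 1400 UMIs per cell, with bars from exact binomial 95% intervals of the share with both. Pairs among *Cd163*, *Folr2* and *Fcna* lay right of 1 in all libraries, and *Retnla* with *Cd163* did so in Vehicle, at 2.28.

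For the 6 members with a UMI in at least 5% of the unthinned macrophages of every library, the 3 genes most like them were taken by the mean over libraries of Pearson's r across macrophages, over 6788 genes, as a description, and are named where r was at least 0.2 in every library. *Mrc1* was closest to *Dab2*, an endocytic adaptor (mean r 0.50), *Cbr2* (0.50) and *Maf*, a transcription factor of resident macrophages (0.49). *Folr2* was closest to *Cbr2* (0.61), *Selenop*, a selenium carrier (0.56), and *Gas6*, a ligand of Axl and Mertk receptors (0.55). *Fcna* was closest to *Ednrb*, an endothelin receptor (0.43), and *Lyve1*, a hyaluronan receptor (0.34). *Retnla* was closest to the chemokines *Ccl6* (0.51) and *Ccl9* (0.43). For *Arg1* none of the 3 closest genes passed. The glycolytic enzyme *Pgk1* came first, with r of 0.21, 0.42 and 0.12 in the 3 libraries. For *Cd163* none of its 3 closest passed either, and the chemokine *Ccl8* came first with 0.24, 0.46 and 0.19. Both genes were named here after their values were seen.

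The ligands of the pathway were rare. Within macrophages, *Il4* gave 4 UMIs in Matrigel-only against 16 in Vehicle and 0 in Palo cells, and *Il13* gave 0, 58 and 0, where a count of 0 allows up to 0.181 CPM in Matrigel-only and 0.134 in Palo by the exact interval. The 58 Vehicle *Il13* UMIs lay in 6 cells, and 54 of them came from macrophages that also met the T and NK gate. Of the 16 Vehicle *Il4* UMIs, 6 came from macrophages that met the T and NK gate and 6 from those that met the basophil gate, where a cell may meet both gates. In all passing cells *Il4* gave 5, 50 and 0 UMIs and *Il13* 4, 93 and 10. Vehicle held 79 basophil-type cells, against 1 in Matrigel-only and 0 in Palo, and these carried 24 of the 50 *Il4* UMIs at 194 CPM (124 to 288) and 13 of the 93 *Il13* UMIs. Vehicle T and NK cells numbered 169, against 41 and 38, and carried 13 *Il13* UMIs at 27.9 CPM (14.9 to 47.8). In Palo, 9 of the 10 *Il13* UMIs lay in 1 T or NK cell. The Vehicle library thus held most of the UMIs of both ligands.

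The receptor and its transcription factor were detected in every library. *Il4ra* was at 478, 594 and 346 CPM in Matrigel-only, Vehicle and Palo macrophages and *Stat6* at 88.0, 79.7 and 72.1. Of 14 genes of interleukin-4 and interleukin-13 signalling that were tested, 3 were higher and 0 lower in Vehicle over Matrigel-only, with a median of 0.22. In Palo over Vehicle 0 were higher and 4 lower, with a median of -0.19. Of all genes tested, 2.77% were higher and 1.23% lower in the first comparison, with a median of 0.00. In the second, 0.906% were higher and 3.3% lower, with a median of -0.14, near that of the list. The feedback inhibitors *Cish*, at 7.07, 49.5 and 2.22 CPM, and *Socs1*, with log2 ratios of 2.18 in Vehicle over Matrigel-only and -2.60 in Palo over Vehicle, and the kinase *Jak2*, at 26.0, 123 and 23.9, were highest in Vehicle. *Cish* passed the filter in Palo over Vehicle only through Vehicle. *Il2rg*, the common gamma chain, was at 37.6, 69.2 and 30.9 CPM.

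Other genes induced by interleukin-4 were also highest in Vehicle in large part. Of 17 tested, 9 were higher and 2 lower in Vehicle over Matrigel-only and 0 higher and 9 lower in Palo over Vehicle, with medians of 1.03 and -1.10. Of all genes tested, 2.77% were higher and 1.23% lower in the first comparison, and 0.906% and 3.3% in the second. *Ccl17*, a chemokine that attracts T cells, was at 0.442, 69.4 and 0.656 CPM, *Pdcd1lg2*, a ligand of PD-1, at 2.16, 62.6 and 2.55, *Cdh1*, which encodes E-cadherin, at 0.540, 53.6 and 1.57 and *Flt1*, a VEGF receptor, at 0.687, 47.0 and 1.09. These 4 stood at 2.55 CPM or less in Matrigel-only and Palo macrophages. With *Ccl22* they make 5 of the 9 that passed the low-level filter only through the Vehicle library, where they had to be higher, so the counts and medians of this list are a description and not support. *Clec10a*, at 849, 264 and 261 CPM, and *Ear2*, at 264, 89.3 and 148, were the 2 genes lower in Vehicle, and were named after their values were seen. The list holds *Ccl22* and *Cd209a*, which are also dendritic cell markers, and 5 endothelial markers beside *Flt1* summed to 8.74, 52.2 and 6.05 CPM in macrophages, and their part in these values was not tested.

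Genes of resident tissue macrophages were mostly lower in Vehicle than in Matrigel-only. Of 18 tested, 1, *Ccl24*, was higher and 10 lower in Vehicle over Matrigel-only, with a median of -1.01. Of all genes tested, 2.77% were higher and 1.23% lower there, and 0.906% higher and 3.3% lower in Palo over Vehicle. In Palo over Vehicle 1, *Vsig4*, was higher and 4, *Ccl24*, *Ccl8*, *Cd209d* and *Clec4n*, were lower, with a median of -0.10. *Vsig4*, at 8.69, 1.81 and 11.7 CPM, passed the low-level filter only through Palo there and only through Matrigel-only in Vehicle over Matrigel-only. *Lyve1* was at 146, 39.1 and 77.2 CPM, *F13a1*, which encodes a coagulation factor subunit, at 2243, 790 and 1236 and the lectin *Cd209f* at 310, 66.8 and 59.4. *Lyve1* and *F13a1* had the order of *Folr2* and *Fcna*. The chemokine *Ccl24*, which is also interleukin-4 induced and stands on both lists, was at 224, 1155 and 141 CPM, *Ccl8*, which also defines the tissue range, at 2758, 5073 and 1365, *Cd209d* at 124, 176 and 50.7 and *Clec4n*, which encodes Dectin-2, at 157, 305 and 113.

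No tested gene of classical activation passed 2-fold lower in Vehicle, where *Arg1* was high, though some were lower there by less. Of 18 tested, 5 were higher and 0 lower in Vehicle over Matrigel-only, with a median of 0.47. In Palo over Vehicle 0 were higher and 6 lower, with a median of -0.77. Of all genes tested, 2.77% were higher and 1.23% lower in the first comparison, and 0.906% and 3.3% in the second. The interferon-induced genes *Cxcl9*, at 0.147, 38.0 and 0.255 CPM, *Cxcl10*, at 5.65, 78.0 and 8.16, and *Gbp2*, at 48.3, 243 and 60.1, and the cytokine *Il1b*, at 53.6, 202 and 64.2, were all highest in Vehicle. *Nos2* itself, at 20 UMIs in Vehicle macrophages, remained under 5 CPM. *Cxcl9* passed the filter only through Vehicle.

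In the pathways around arginase, 2 of 14 genes tested were higher and 0 lower in Vehicle over Matrigel-only, with a median of 0.29. In Palo over Vehicle 0 were higher and 2 lower, with a median of -0.42. The 2 were the same in both comparisons, *Slc7a2*, an arginine transporter, at 6.88, 69.9 and 7.29 CPM, and *Ass1*, which remakes arginine from citrulline, at 4.37, 47.0 and 9.91. *Ass1* passed the filter in Vehicle over Matrigel-only only through Vehicle. Of all genes tested, 2.77% were higher and 1.23% lower in the first comparison, and 0.906% and 3.3% in the second. *Odc1*, which turns ornithine into putrescine, was at 38.0, 57.3 and 33.2 CPM and *Srm*, a spermidine synthase, at 30.0, 42.1 and 21.1. The second arginase, *Arg2*, was at 11.1, 14.3 and 13.1 CPM, and did not pass 2-fold in any comparison.

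Cells outside the macrophage rule held part of the UMIs. Cells under 1% stromal UMIs with neither *Csf1r* nor *C1qa* and no other gate numbered 628, 479 and 322, and they carried the other 10 of the 12 macrophage markers in each library. They held 13.9%, 4.26% and 4.51% of all *Arg1* UMIs, at 165, 628 and 50.2 CPM, and *Retnla* at 9442, 511 and 6523 CPM. *Arg1* was thus highest and *Retnla* lowest in Vehicle among them too, while *Folr2* was at 37.5, 22.8 and 20.5 CPM, under the macrophages of each library. With macrophages that met a T and NK, neutrophil, basophil or dendritic gate left out, 3 members were higher and 3 lower in Vehicle over Matrigel-only, and 2 higher and 3 lower in Palo over Vehicle. Over all genes with these cells left out, 2.57% of 9873 were higher and 1.23% lower in the first comparison. In the second, 0.890% of 9771 were higher and 3.13% lower.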

How the data were processed

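Cells came from 3 libraries of CD-1 mice, 1 per condition. The authors aligned the reads to mm10 and counted UMIs per gene with Cell Ranger 3.0.2 (10x Genomics), and analysed them with Seurat 3, per the submitters' processing notes. The deposited files hold those raw counts for 31053 genes, with 44252421 UMIs in Matrigel-only against 46317250 in Vehicle and 46901673 in Palo.

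Cells with 200 to 6000 genes and at most 5% mitochondrial UMIs were kept. UMIs were summed over macrophages of a library and given as CPM. Shares were computed by exact hypergeometric thinning to 1400 UMIs per cell. Ratios carry conditional binomial 95% intervals. Genes were counted past 2-fold with 5 CPM added, among those at 5 CPM or more in 1 of the compared libraries. Cell types other than macrophages were set by marker gates, without clustering. Doublets were scored with Scrublet in scanpy 1.11.5, whose own threshold called 1, 3 and 0 cells and so did not work. The 609, 240 and 426 highest-scoring cells were left out as an alternative. Python 3.11.15, numpy 2.4.6, scipy 1.17.1, pandas 2.3.3, R 4.3.3 and edgeR 4.0.16 (for TMM factors alone) were used, and the scripts were tested on simulated data.

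All members are named, as are up to 4 genes per list with the largest ratio in Vehicle over Matrigel-only or Palo over Vehicle among those at 20 CPM or more, the pathway's ligands, receptor and Stat6, *Arg2*, and up to 3 genes most like each member. The members and lists were chosen with earlier results of these data known. Of the listed genes, 2 are not analysed here. The values of 1 further listed gene are not reported here. The closing section gives the effect of 11 planned and 2 added alternatives.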

Additional observations from a re-analysis of the deposited data

How the results depend on the processing

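No paired analysis was possible because each condition was 1 library. Of 216 member ratios recomputed, 24 under each of 9 alternatives, 1 changed sign, *Mrc1* in Vehicle over Matrigel-only, which ran from -0.01 to 0.08. *Arg1* ran from 3.75 to 4.39 in Vehicle over Matrigel-only and from -5.20 to -4.96 in Palo over Vehicle, and *Retnla* from -3.44 to -3.00 and from 2.36 to 2.70. The number of members past 2-fold was 5 or 6 in Vehicle over Matrigel-only and 4 or 5 in Palo over Vehicle, the lower number with the mean of each cell's CPM. At 1.5-fold it was 6 and 7. In Palo over Matrigel-only it was 1 and became 0 with TMM factors, with a stromal limit of 0.5%, and under both alternatives chosen after seeing the data, shared barcodes left out and remaining cells added. It became 5 at 1.5-fold. Over all genes, a pseudocount of 1 CPM gave 414 higher and 258 lower in Vehicle over Matrigel-only, 177 and 508 in Palo over Vehicle and 84 and 161 in Palo over Matrigel-only. A limit of 1.5-fold gave 680 and 503, 342 and 930, and 179 and 428. These were 6.85% and 5.07%, 3.48% and 9.47%, and 1.84% and 4.41% of the genes tested. The mean of each cell's CPM gave 2.89% higher and 1.15% lower in Vehicle over Matrigel-only, and 0.949% and 3.51% in Palo over Vehicle. TMM factors gave 137 higher and 239 lower in Palo over Vehicle, and 64 higher and 46 lower in Palo over Matrigel-only. Thinned to 2000 UMIs, 17 of 24 shares moved beyond their intervals, as did 40 of 84 co-detection shares. Of the 24 ratios, 12 moved beyond their intervals with TMM factors and 12 with the mean of each cell's CPM. The T and NK shares rest on 22 to 141 cells, and *Nos2* in macrophages on 1 to 20 UMIs.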

Other observations

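*Nos2* was a stromal transcript in these masses, and its spread among stromal cells was examined after its values were seen. Stromal cells without a UMI of *Pi16*, a marker of adventitial fibroblasts, had *Nos2* at 57.9 CPM in Matrigel-only against 27.7 in Vehicle and 6.16 in Palo, and those with one at 8.33, 6.46 and 0.482. The level was thus higher in *Pi16*-negative cells in each of the 3 libraries. Splits by other genes were also made. *Nos2* was likewise higher in cells with *Inhba* in each library, at 81.8 against 23.8, 26.8 against 19.4 and 5.85 against 4.08 CPM. It was also higher in cells without *Cxcl12* in each. Splits by *Sox9* and *Top2a* changed direction between libraries, and *Acan* was detected in only 1 Matrigel-only and 4 Palo stromal cells. Across stromal cells, among 12143 genes, those most like *Nos2* were *Barx2*, a homeobox transcription factor, with r of 0.49 in Matrigel-only, 0.11 for Vehicle and 0.36 for Palo cells, and *Ndrg1*, with 0.38, 0.38 and 0.199. Neither reached the limit of 0.2 in every library that was used for the members. *Pgf*, ranked 3, did not either, with 0.39, 0.52 and -0.004. *Tnfaip6*, ranked 5, did, with 0.39, 0.21 and 0.27, and was named after its values were seen. These are descriptions within libraries.

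Cells under the stromal limit that lacked both *Csf1r* and *C1qa* and met no other gate carried 228 of the 1660 *Chil3* UMIs of Vehicle, at 185 CPM, against 95.7 in Vehicle macrophages, and they lay in 37 cells.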
